A study of Mus musculus with 11 samples.

Results

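Endothelial cells line the blood vessels of the lung and are recognised by a small set of receptors, junction proteins and transcription factors. Described here are 10 such genes out of 14351 genes named on the arrays. The receptors are Tie1, Tek and Kdr, joined by Ramp2, the partner of the receptor Calcrl. The junction proteins are Cdh5, Pecam1, Cldn5 and Esam. Sox17 is a transcription factor and Rasip1 a junction-linked GTPase effector. All 10 were chosen by name from a list of textbook endothelial genes, with earlier results of these data known. Each gene was read from its probe set with the highest mean, and each had 1 distinct probe set (Pecam1 had 2 with identical values). All 10 passed the filter on low values, which asked for a log2 value of at least 5 on at least 2 arrays, as did 8085 genes in all.

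The study measured lung RNA of Balb/c mice on 11 one-colour arrays and asked how loss of both 4E-BP1 and 4E-BP2, repressors of cap-dependent translation that bind eIF4E, alters messages and their loading on ribosomes. Wild-type mice were bought from a commercial breeder and 4ebp1-/-/4ebp2-/- mice came from another laboratory. Mice of both genotypes ate the AIN-93M purified diet from 5 weeks of age. The age at lung collection and the allele design are not given in the sources used here. Total RNA was measured on 3 wild-type and 3 knockout arrays, and polysomal RNA (gradient fractions 7 to 10, messages with 3 or more ribosomes) on 2 wild-type and 3 knockout arrays. The labels do not tie arrays to individual mice, and p-values therefore reflect only how these arrays vary, part of which may be technical. The wild-type and knockout colonies differ in source, and genotype and source cannot be told apart. The targeted gene Eif4ebp2 ranged from 2.61 to 3.26 log2 in knockout total RNA against 4.50 to 5.49 in wild type, and from 3.75 to 3.92 against 5.76 to 6.09 in polysomal RNA. Eif4ebp1 was at 7.92 to 7.94 against 8.20 to 8.54 in total RNA and at 7.05 to 7.36 against 7.78 to 7.93 in polysomal RNA, and the position of its probes against the deletion is unknown here.

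In the vessel wall, VEGF acting on Kdr and angiopoietins acting on Tek drive growth and quiescence of endothelium, and Tie1 is a related receptor that modulates Tek. Cdh5 (VE-cadherin) and Cldn5 build the adherens and tight junctions that seal the capillary, and Pecam1 and Esam are adhesion molecules at the same contacts. Sox17 is a transcription factor of arterial endothelium, Ramp2 is the partner of the receptor Calcrl for adrenomedullin, and Rasip1 binds Rap1 and acts in formation of the vessel lumen. In whole lung a change in the number of endothelial cells and a change in RNA per cell cannot be told apart.

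Sorted by which genotype contrasts passed, the genes fell into several kinds, with Rasip1 the only member that passed in both. This sorting rests on the threshold and is not a test of the difference between the RNA kinds, which is given below as the interaction. In total RNA 7 of the 10 (Tie1, Kdr, Pecam1, Cldn5, Esam, Ramp2 and Rasip1) were higher in knockout lung by 0.77 to 1.75 log2 units. Of all genes 17.2% were called higher and 5.97% lower there. The sizes for Pecam1 (1.54) and Rasip1 (1.75) are not well measured. Their wild-type total values were under the filter value, and they passed the filter only through the other groups. In polysomal RNA 6 of these 7 did not pass the test. Rasip1 was lower there by a call near the threshold, which was lost in 14 of 21 alternative analyses. Tek and Cdh5 passed in neither RNA kind. Sox17 did not pass in total RNA and fell in polysomal RNA to the level of total RNA. For knockout against wild type in polysomal RNA, 8.36% of all genes were called higher and 6.77% lower. All 10 members stood higher in polysomal than in total RNA of wild-type lung, where 44.5% of all genes were called higher.

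Promoters of the receptor pair Tie1 and Tek and of Rasip1 are shown because Tie1 and Rasip1 had the largest total RNA rises among the members with a promoter in the RefSeq table (build GRCm38.p6), while Tek, the closest relative of Tie1, did not pass. Each runs from 250 bases before to 50 bases after the start used in that table. Capitals mark matches on either strand to CAGGAA or CCGGAA (cores of ETS factor sites), ACAATG or ACAAAG (cores of SOX factor sites) and TGTTTA (core of FOX factor sites). No capitals overlap between motifs.
Tie1, chr4:118489800-118490099, minus strand: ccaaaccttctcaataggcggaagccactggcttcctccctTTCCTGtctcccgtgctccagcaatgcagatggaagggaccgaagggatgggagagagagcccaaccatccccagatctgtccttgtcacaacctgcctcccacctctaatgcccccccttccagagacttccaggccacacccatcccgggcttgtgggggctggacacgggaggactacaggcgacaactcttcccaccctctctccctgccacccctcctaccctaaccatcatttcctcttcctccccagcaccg
Tek, chr4:94739039-94739338, plus strand: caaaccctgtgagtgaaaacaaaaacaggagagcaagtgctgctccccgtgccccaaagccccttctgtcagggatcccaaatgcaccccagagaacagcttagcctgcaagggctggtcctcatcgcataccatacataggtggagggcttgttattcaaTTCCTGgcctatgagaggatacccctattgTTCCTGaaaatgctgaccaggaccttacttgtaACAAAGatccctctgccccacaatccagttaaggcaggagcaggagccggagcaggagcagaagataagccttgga
Rasip1, chr7:45627287-45627586, plus strand: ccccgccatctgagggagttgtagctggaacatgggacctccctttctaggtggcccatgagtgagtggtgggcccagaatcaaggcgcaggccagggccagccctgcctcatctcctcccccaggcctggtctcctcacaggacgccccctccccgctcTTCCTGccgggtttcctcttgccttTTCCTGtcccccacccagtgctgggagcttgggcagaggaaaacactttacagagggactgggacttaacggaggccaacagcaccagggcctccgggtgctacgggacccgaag

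Tie1 held 1 CAGGAA match, Tek 2 together with 1 ACAAAG match, and Rasip1 2 CAGGAA matches. Of the other members with a promoter, Kdr held 1 CCGGAA match and Cldn5 none of the 5 motifs. Over all 32851 promoters of the table, 30.6% held CAGGAA, 14.9% CCGGAA, 12.6% ACAATG, 18.7% ACAAAG and 13.4% TGTTTA, so these matches are common and are given as description. Messages of the terminal oligopyrimidine class, which are sensitive to 4E-BPs, begin with an unbroken run of C and T. At the start in the table that run was 2 bases for Tie1 and Rasip1 and 0 for Tek, Kdr and Cldn5, while 4.44% of all promoters had a run of at least 5.

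Among the receptors, Tie1 showed the clearest genotype difference in total RNA. Its log2 values were 6.29, 5.95 and 6.38 on the wild-type total arrays and 7.54, 7.74 and 7.67 on the knockout total arrays. Every knockout array lay above every wild-type array, and Tie1 rose by 1.44 (SE 0.14, n = 3 and 3, limma with Benjamini-Hochberg adjustment over all tested probe sets, adjusted p = 3.6e-04), a fold of 2.71. On the polysomal arrays Tie1 read 10.74 and 10.41 in wild type and 10.31, 10.44 and 10.52 in knockout. These groups overlapped, and the difference of -0.15 (95% interval -0.49 to 0.19) did not pass (limma adjusted p = 0.57).

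Tek, the angiopoietin receptor, differed from Tie1 in total RNA by showing no separation of the genotypes. It read 12.24, 12.19 and 12.21 in wild-type and 12.17, 12.33 and 12.20 in knockout total RNA, a difference of 0.02 (95% interval -0.21 to 0.25, limma adjusted p = 0.92). In polysomal RNA it read 13.58 and 13.56 in wild type and 13.65, 13.96 and 13.98 in knockout. Here the knockout arrays all lay above the wild-type arrays, yet the difference of 0.29 (SE 0.11) did not pass (limma adjusted p = 0.11). Without knockout polysomal replicate 1 it was 0.40 and passed (limma adjusted p = 0.031).

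Kdr, the main signalling receptor for VEGF, read 11.15, 11.01 and 11.49 in wild-type total RNA and 11.72, 12.23 and 12.03 in knockout total RNA. The groups did not overlap and Kdr rose by 0.78 (SE 0.15, n = 3 and 3, limma adjusted p = 0.0067). Its polysomal values were 13.03 and 12.90 in wild type and 13.05, 13.13 and 13.10 in knockout. The knockout arrays all lay above the wild-type arrays. Their difference of 0.14 (SE 0.17, limma adjusted p = 0.64) was within the spread of the fit and did not pass.

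Ramp2, which turns Calcrl into an adrenomedullin receptor, read 9.77, 10.19 and 9.70 in wild-type total RNA and 10.88, 11.02 and 10.89 in knockout total RNA. All knockout arrays were higher, and Ramp2 rose by 1.04 (SE 0.12, limma adjusted p = 9.5e-04), a fold of 2.06. On polysomes the values were 13.03 and 12.97 in wild type and 12.83, 12.88 and 12.90 in knockout. The knockout arrays were all slightly lower, and the difference of -0.13 (95% interval -0.43 to 0.18) did not pass (limma adjusted p = 0.59).

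**Figure D1:**
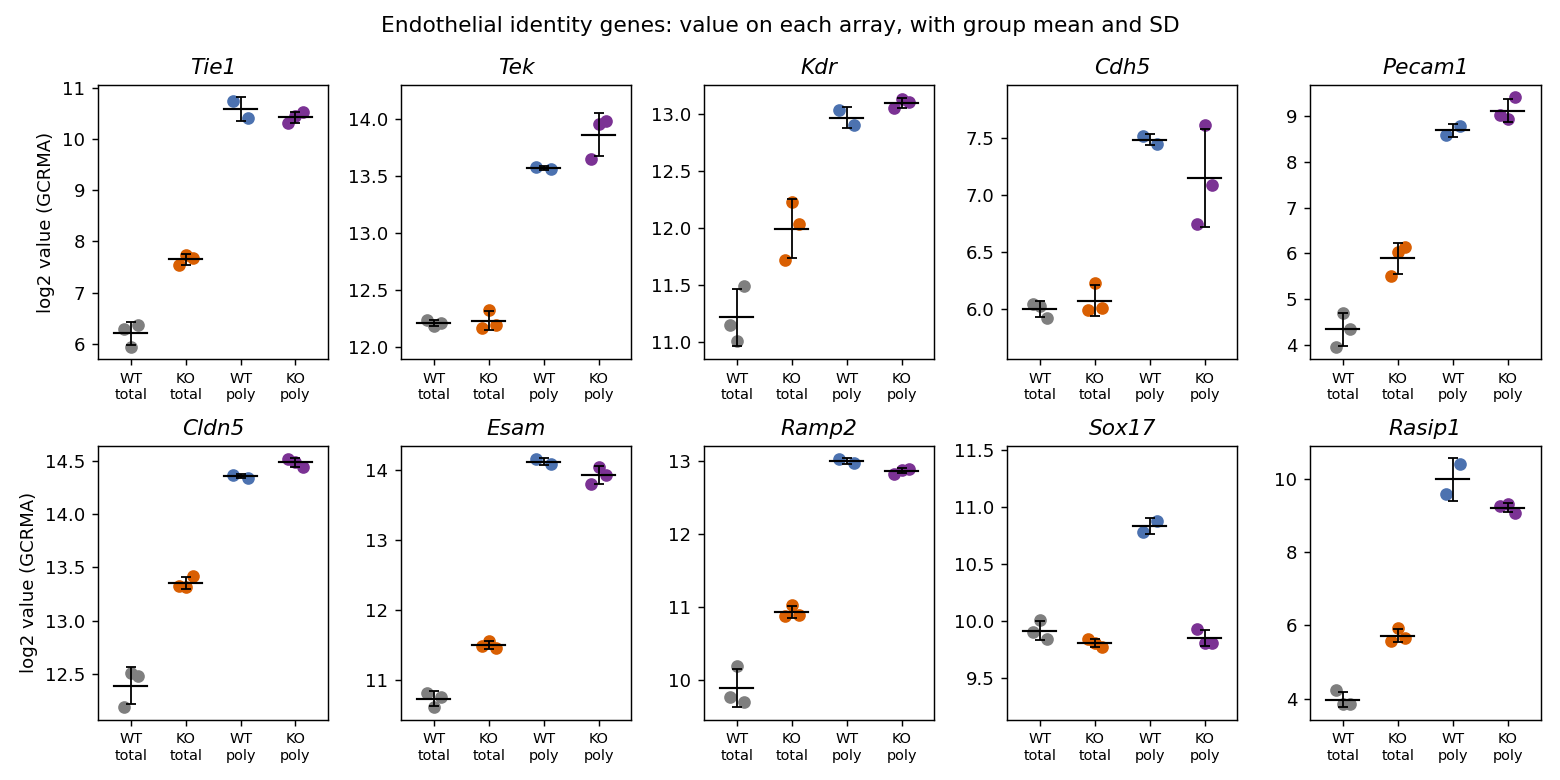
Log2 value of each gene on every array (points), by group, with the group mean (bar) and SD (whisker), for 3 wild-type (WT) and 3 knockout (KO) total arrays and 2 and 3 polysomal arrays. The log2 axis differs between panels. The knockout total arrays sit between the wild-type total and the polysomal arrays for the 7 genes that rose, and the Sox17 knockout polysomal arrays (9.81 to 9.93) sit with the total arrays.

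The junction proteins split in the same way. Cldn5, the main claudin of endothelial tight junctions, read 12.19, 12.51 and 12.48 in wild-type total RNA and 13.33, 13.32 and 13.42 in knockout total RNA. The knockout arrays lay above all wild-type arrays and close to each other, and Cldn5 rose by 0.96 (SE 0.10, limma adjusted p = 5.0e-04). Its polysomal values were 14.37 and 14.34 in wild type and 14.52, 14.49 and 14.44 in knockout. The knockout arrays were all higher, and the difference of 0.13 (SE 0.11) did not pass (limma adjusted p = 0.47).

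Esam, an adhesion molecule of endothelial cells and platelets, read 10.82, 10.61 and 10.76 against 11.49, 11.56 and 11.45 in total RNA. Knockout was higher on every array, and Esam rose by 0.77 (SE 0.09, limma adjusted p = 0.0010). In polysomal RNA it read 14.15 and 14.08 in wild type against 13.79, 14.04 and 13.93 in knockout, which did not overlap, and the difference of -0.20 (SE 0.10) did not pass (limma adjusted p = 0.24).

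Pecam1 (CD31), which leukocytes and platelets also carry, was low in wild-type total RNA. Its values there were 3.97, 4.70 and 4.36, all under the filter value of 5, against 5.50, 6.04 and 6.13 in knockout total RNA. It rose by 1.54 (SE 0.22, limma adjusted p = 0.0021), and the size is not well measured because the wild-type values are low. Pecam1 passed the filter only through the other groups. In polysomal RNA it stood at 8.58 and 8.78 in wild type and at 9.02, 8.92 and 9.40 in knockout. Knockout was higher on each array, but the difference of 0.43 (95% interval -0.12 to 0.99) did not pass (limma adjusted p = 0.28). Of 6 tested leukocyte markers 2 rose in total RNA (Coro1a and Itgb2), 1 fell (Cd53) and 3 did not pass. Their summed level was 13.40 to 13.74 log2 on wild-type and 13.50 to 13.89 on knockout total arrays. Of 8 platelet markers 2 passed the filter and in total RNA Ppbp, a platelet chemokine, fell by 0.87 (SE 0.28, limma adjusted p = 0.049). With 1 array omitted in turn, the Cd53 call was lost for 10 of the 11 arrays, the Itgb2 call for 7 and the Ppbp call for 9. The platelet list summed to 10.91 to 10.98 on wild-type and 10.84 to 10.91 on knockout total arrays. The part of these cells in the Pecam1 difference was not tested.

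Cdh5 encodes VE-cadherin, the adherens junction protein that defines endothelium. It read 6.05, 6.03 and 5.92 in wild-type and 5.99, 6.23 and 6.01 in knockout total RNA, and the groups overlapped. The difference was 0.07 (95% interval -0.33 to 0.48, limma adjusted p = 0.81). Its probe set read low, at percentiles 14.3 to 15.5 of tested probe sets on wild-type and 14.0 to 16.7 on knockout total arrays. In polysomal RNA it read 7.52 and 7.45 in wild type and 6.75, 7.61 and 7.09 in knockout, the widest spread of any member among knockout polysomal arrays (SD 0.43, n = 3). The polysomal difference of -0.34 (SE 0.20) did not pass (limma adjusted p = 0.31). Without knockout polysomal replicate 2 it was -0.57 and passed (limma adjusted p = 0.040).

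Sox17 changed in the other RNA kind. Its total RNA values were 9.90, 10.01 and 9.84 in wild type and 9.84, 9.81 and 9.77 in knockout, a difference of -0.11 (95% interval -0.29 to 0.07, limma adjusted p = 0.36). In polysomal RNA it read 10.78 and 10.88 in wild type and 9.93, 9.81 and 9.81 in knockout. All 3 knockout arrays lay below both wild-type arrays, and Sox17 fell by 0.99 (SE 0.09, n = 2 and 3, limma adjusted p = 5.8e-04), which is 1.98-fold lower. Over the 21 alternative analyses that difference stayed between -1.04 and -0.94 and passed in all of them.

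Rasip1 read 4.22, 3.85 and 3.85 in wild-type total RNA, under the filter value, and 5.57, 5.93 and 5.66 in knockout total RNA. It rose by 1.75 (SE 0.20, limma adjusted p = 8.6e-04), the largest total RNA rise of the 10, and its size shares the limit given for Pecam1. Like Pecam1 it passed the filter only through the other groups. On polysomes it read 9.58 and 10.40 in wild type and 9.27, 9.31 and 9.08 in knockout. The knockout arrays were lower, and Rasip1 fell by 0.77 (SE 0.23, n = 2 and 3, limma adjusted p = 0.047), a call near the threshold. It held without wild-type polysomal replicate 1 (-1.18, limma adjusted p = 0.013) and without wild-type total replicate 3, and was lost on omission of each of the other 9 arrays, with the smallest difference without wild-type polysomal replicate 2 (-0.36, adjusted p = 0.31). It was also lost with no filter on low values (limma adjusted p = 0.10) and with the groups compared alone (adjusted p = 0.12).

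Counted together, 7 of the 10 rose in total RNA, none fell and 3 did not pass. Over all 8085 genes 17.2% were called higher and 5.97% lower. The median of the members was 0.87 log2 against 0.09 for all genes. At an unadjusted p under 0.05 the count lower was also 0. Every knockout array lay above every wild-type array for the same 7 genes, a pattern shown by 28.0% of all genes. In polysomal RNA no member rose by limma, 2 fell (Sox17 and Rasip1) and 8 did not pass, where 8.36% of all genes were called higher and 6.77% lower. The arrays of the genotypes did not overlap on polysomes for 8 genes, 4 higher (Tek, Kdr, Pecam1 and Cldn5, against 23.8% of all genes) and 4 lower (Esam, Ramp2, Sox17 and Rasip1, against 25.2%). At an unadjusted p under 0.05, 1 was higher (Tek) and the same 2 were lower. The members' median there was -0.14 and that of all genes -0.01.

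The 11 arrays carry a replicate set letter that the labels do not explain. Every knockout total array lay above every wild-type total array for the 7 genes, so their direction within a letter was fixed in advance. The same holds, downward, for Sox17 and Rasip1 in polysomal RNA. The total RNA differences of the 7 genes within a letter are given as description. Between arrays of set A (2 wild-type, 1 knockout) they were 1.42 for Tie1, 0.64 for Kdr, 0.97 for Cldn5, 0.77 for Esam, 0.90 for Ramp2, 1.16 for Pecam1 and 1.54 for Rasip1. For set B (1 wild-type, 2 knockout) the same genes gave 1.32, 0.64, 0.89, 0.75, 1.26, 1.72 and 1.95. Sox17 in polysomal RNA was at -0.98 in set B and -1.08 in set C, with 1 array a side. Rasip1 in polysomal RNA was at -0.27 in set B and -1.32 in set C.

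**Figure D2:**
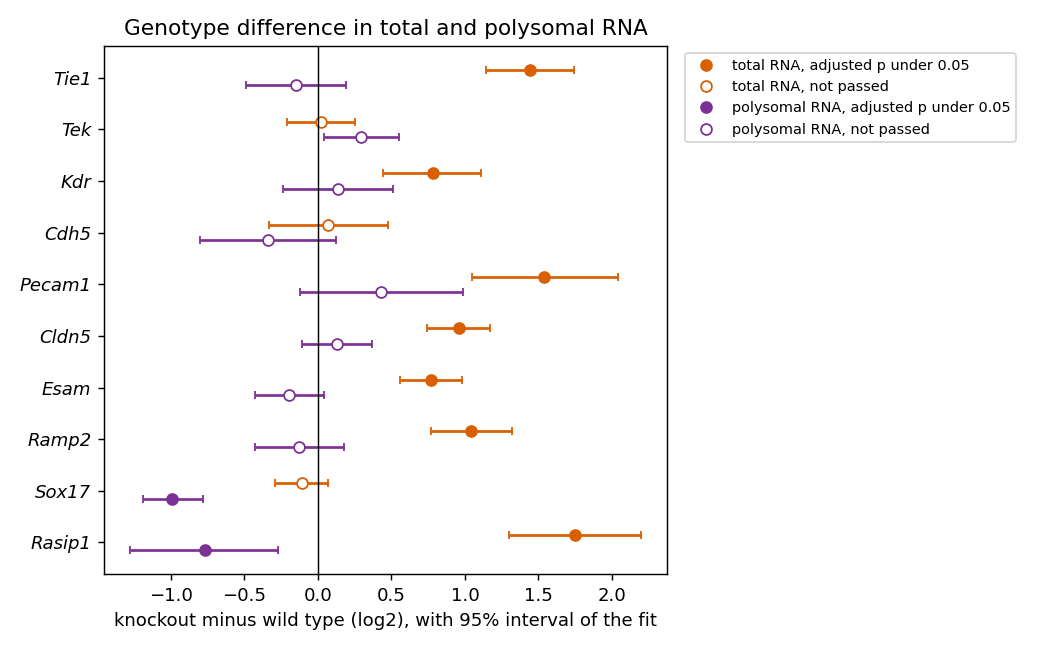
Knockout minus wild type in log2 units for each gene in total RNA (orange) and polysomal RNA (purple), with the 95% interval of the limma fit. Filled points have an adjusted p under 0.05. In total RNA 7 genes lie at 0.77 to 1.75, and in polysomal RNA only Sox17 (-0.99) and Rasip1 (-0.77) are filled.

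Whether the genotype difference itself depended on the RNA kind was tested as the interaction, the polysomal difference minus the total RNA difference. It was below 0 and passed for 7 of the 10: Tie1, Pecam1, Cldn5, Esam, Ramp2, Sox17 and Rasip1. Of all genes 14.2% were called lower and 8.06% higher by this test. No member was called higher, also at an unadjusted p under 0.05, where 8 were lower. Rasip1 was at -2.52 (SE 0.30, limma adjusted p = 0.0023). Its size, like that of Pecam1, is not well measured, because the wild-type total values that enter it were under the filter value. Tie1 was at -1.59 (SE 0.20, limma adjusted p = 0.0030) and Ramp2 at -1.17 (SE 0.18, adjusted p = 0.0049). Pecam1 was at -1.11 (SE 0.33, limma adjusted p = 0.041), Esam at -0.97 (SE 0.14), Sox17 at -0.88 (SE 0.12) and Cldn5 at -0.83 (SE 0.14). The Pecam1 call held on omission of knockout total replicate 1, wild-type total replicate 2 or knockout polysomal replicate 3, and was lost on omission of each other array (-1.21 to -0.92) and with no filter on low values (limma adjusted p = 0.089). Kdr (-0.64, SE 0.22, limma adjusted p = 0.067), Cdh5 (-0.41, SE 0.27, adjusted p = 0.30) and Tek (0.27, SE 0.15, adjusted p = 0.22) did not pass. Kdr passed at -0.78 without knockout total replicate 1 or without wild-type total replicate 3, and Cdh5 at -0.64 without knockout polysomal replicate 2. For Tie1, Pecam1, Cldn5, Esam and Ramp2 the interaction came with a rise in total RNA and no called change on polysomes, and for Sox17 with a fall on polysomes and no called change in total RNA.

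Polysomal against total RNA compares, within a genotype, arrays that also enter the genotype contrasts. Polysomal RNA came from gradient fractions and total RNA did not, so RNA kind and preparation cannot be told apart. The array values are normalized, and the differences are relative levels, not the share of a message on ribosomes. In wild type all 10 genes were higher in polysomal RNA, where 44.5% of all genes were called higher. Their median was 2.53 log2 against 0.22 for all genes. Rasip1 stood 6.02 higher (SE 0.23), from 3.97 ± 0.21 (SD, n = 3) in total to 9.99 ± 0.58 (SD, n = 2) in polysomal RNA, and Pecam1 4.34 higher (SE 0.25). Both start from wild-type total values under the filter value of 5, and the size of these differences is therefore not well measured. Tie1 stood 4.36 (SE 0.15), Esam 3.39 (SE 0.10) and Ramp2 3.11 (SE 0.14) higher. The smallest were Cldn5 at 1.96, Kdr at 1.74, Cdh5 at 1.49, Tek at 1.35 and Sox17 at 0.92 (SE 0.09, limma adjusted p = 9.8e-06).

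In knockout 9 of the 10 were higher in polysomal RNA, where 39.5% of all genes were called higher, and the members' median was 1.78 against 0.13. Rasip1 stood 3.50 higher (SE 0.20), Pecam1 3.23 (SE 0.22), Tie1 2.78 (SE 0.14), Esam 2.42 (SE 0.09) and Ramp2 1.94 (SE 0.12). Tek stood 1.63 higher, Cldn5 1.13, Kdr 1.10 and Cdh5 1.07. Sox17 was the exception at 0.04 (95% interval -0.14 to 0.22, limma adjusted p = 0.68), and at -0.06 after quantile normalization. Tek was the 1 member whose polysomal difference was larger in knockout than in wild type, and that comparison is its interaction, which did not pass.

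**Figure D3:**
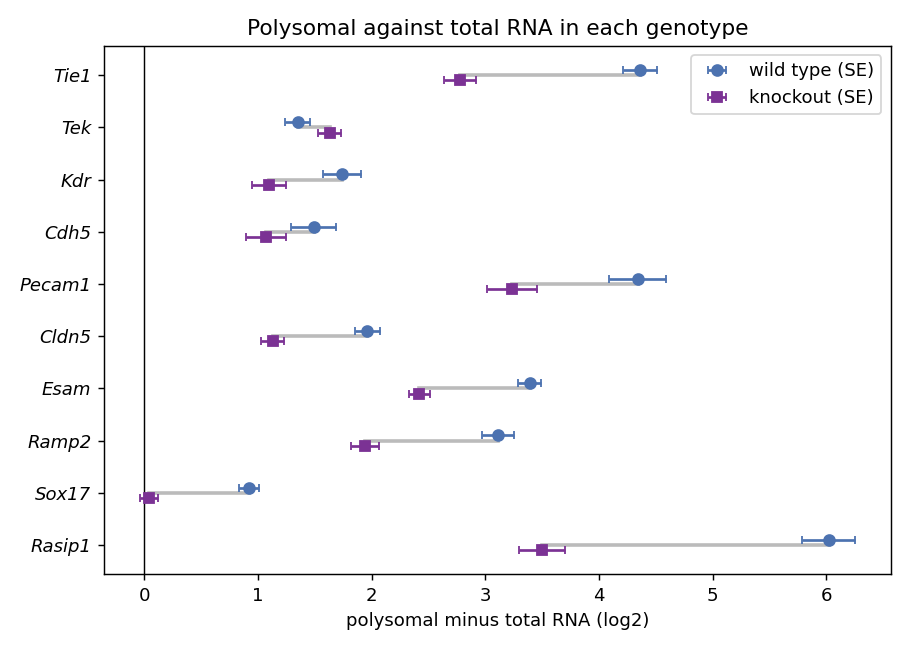
Polysomal minus total RNA in log2 units for each gene in wild type (circles) and knockout (squares), with the SE of the fit. Sox17 falls from 0.92 to 0.04 and Rasip1 from 6.02 to 3.50, while Tek goes from 1.35 to 1.63.

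The order of the 4 groups was the same for 5 genes. Tie1, Cdh5, Esam, Ramp2 and Rasip1 ran from wild-type total through knockout total and knockout polysomal to wild-type polysomal RNA, and Tek, Kdr, Pecam1 and Cldn5 had the polysomal groups the other way round. Among neighbours in these orders, arrays overlapped between the polysomal groups for Tie1 and Cdh5 and between the total groups for Tek and Cdh5. Sox17 had its own order, with knockout total, knockout polysomal and wild-type total overlapping and wild-type polysomal apart. As percentiles of all tested probe sets on an array, Tie1 ran from 14.1 to 20.0 on wild-type total arrays, 34.7 to 37.8 on knockout total arrays and 75.6 to 80.5 on polysomal arrays. Sox17 ran from 70.2 to 73.7 on total arrays and from 69.0 to 71.0 on knockout polysomal arrays, against 81.0 to 81.9 on wild-type polysomal arrays.

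Beyond the group differences, the members did not move as one from array to array. After the group means were taken out, Pearson's r over the 45 pairs of members had a median of 0.10 and ran from -0.91 (Tie1 with Sox17) to 0.78 (Tek with Cdh5), over the same 11 arrays for all pairs. Across all 11 arrays, with the group differences left in, r of each gene to the mean of the other 9 was 0.937 to 0.996 for 9 genes and 0.455 for Sox17. The 8 genes outside the list most like the members' mean profile were Capg, Muc1, Anapc7, Rtf2, Necap2, Lbp, Tsr3 and Pkm, with r of 0.997 to 0.999 over the 11 arrays. They are not endothelial markers, and 1394 of 8075 genes reached r of at least 0.95, so the profile is shared widely. These correlations include the differences between the 4 group levels.

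Ligands, partners and relatives of the members were read from lists, to be set beside the 17.2% of all genes called higher and 5.97% called lower in total RNA, and the 8.36% and 6.77% in polysomal RNA. Of 12 listed genes of the VEGF pathway 4 were tested and none passed in either RNA kind by limma, with 1 higher in total RNA and none in polysomal RNA at an unadjusted p under 0.05. In total RNA the co-receptor Nrp1 was at 0.41 (SE 0.14, limma adjusted p = 0.061). The ligand Vegfa also did not pass. Of 4 tested genes of the angiopoietin pathway, among them the ligands Angpt1 and Angpt2 and the phosphatase Ptprb, none passed by limma in either RNA kind, and at an unadjusted p under 0.05 none did in total RNA and 1 was lower in polysomal RNA. The smallest p was that of Svep1, a large extracellular matrix protein, at -0.71 in polysomal RNA (SE 0.23, limma adjusted p = 0.069). Of 6 tested genes of the adrenomedullin and CGRP pathway 1, the ligand Adm, rose in total RNA by 1.34 (SE 0.31, limma adjusted p = 0.014). The other 5 did not pass there. In polysomal RNA 1, Calcrl, the receptor that Ramp2 partners, rose by 0.54 (SE 0.12, limma adjusted p = 0.020), and 5 did not pass. Calcrl was at -0.03 in total RNA, where Ramp2 rose by 1.04, and the difference between the 2 genes was not tested. Omission of 1 array in turn lost the Adm call once and the Calcrl call for 2 arrays.

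Junction partners gave 2 higher, 1 lower and 8 not passed of 11 in total RNA, and 1 higher and 10 not passed in polysomal RNA. Jup (plakoglobin), which binds cadherin tails, had a total RNA rise of 0.76 (SE 0.13, limma adjusted p = 0.0045), and that of Icam2, an endothelial adhesion molecule, was 0.47 (SE 0.10, adjusted p = 0.010). The scaffold Magi1 fell by 0.45 (SE 0.11, limma adjusted p = 0.021), a call lost on omission of 4 of the arrays in turn. On polysomes the scaffold Tjp1 rose by 0.32 (SE 0.10, adjusted p = 0.048), a call lost on omission of 9 of the 11 arrays in turn.

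Endothelial transcription factors gave 2 higher and 16 not passed of 18 in total RNA, and 3 higher and 15 not passed in polysomal RNA. Sox18, a SOX factor of the same subgroup as Sox17, had a total RNA rise of 0.94 (SE 0.23, limma adjusted p = 0.016) and a polysomal difference of 0.23 (SE 0.25, adjusted p = 0.59), whereas the call for Sox17 was in polysomal RNA. The difference between the pair was not tested. Ets1 rose in both, by 0.76 (SE 0.15) and 0.89 (SE 0.17). Lmo2 (0.56, SE 0.15, limma adjusted p = 0.035) and Tal1 (0.78, SE 0.23, adjusted p = 0.049), blood and vessel factors that act in one complex, rose in polysomal RNA, and these calls were lost on omission of 6 and 9 of the arrays in turn. The Sox18 call was lost for 2 arrays and the polysomal Ets1 call for 1.

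Of 13 tested Notch and BMP pathway genes 4 rose, 2 fell and 7 did not pass in total RNA, and none passed in polysomal RNA by limma, where 2 were lower at an unadjusted p under 0.05. The BMP receptors Acvrl1 (0.90, SE 0.10, limma adjusted p = 8.6e-04) and Eng (0.88, SE 0.14, adjusted p = 0.0036) rose, while the ligand Jag1 (-0.45, SE 0.11) and the signal carrier Smad1 (-0.35, SE 0.09) fell. The Jag1 call was lost on omission of 1 array and the Smad1 call on omission of 3, each in turn. The remaining 29 tested endothelial surface and secreted genes gave 9 higher, 2 lower and 18 not passed in total RNA, and 2 higher, 1 lower and 26 not passed in polysomal RNA. Plvap, which forms the diaphragms of endothelial pores, rose by 1.29 (SE 0.17, limma adjusted p = 0.0016), Mcam, an adhesion molecule of endothelium and pericytes, by 1.23 (SE 0.16) and Egfl7, a secreted endothelial protein, by 1.05 (SE 0.09) in total RNA. Egfl7 also rose in polysomal RNA, by 0.42 (SE 0.10, limma adjusted p = 0.026), lost on omission of 4 of the arrays in turn. Bmx, a kinase of arterial endothelium, fell in both, by 0.77 (SE 0.08) and 0.51 (SE 0.09). With only the groups compared in the fit, the polysomal calls for Calcrl, Tjp1, Lmo2, Tal1 and Egfl7 and the total RNA calls for Jag1, Cd53, Itgb2 and Ppbp were also lost. The median of this list of 29 was 0.25 in total RNA, between the 0.87 of the 10 members and the 0.09 of all genes.

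**Figure D4:**
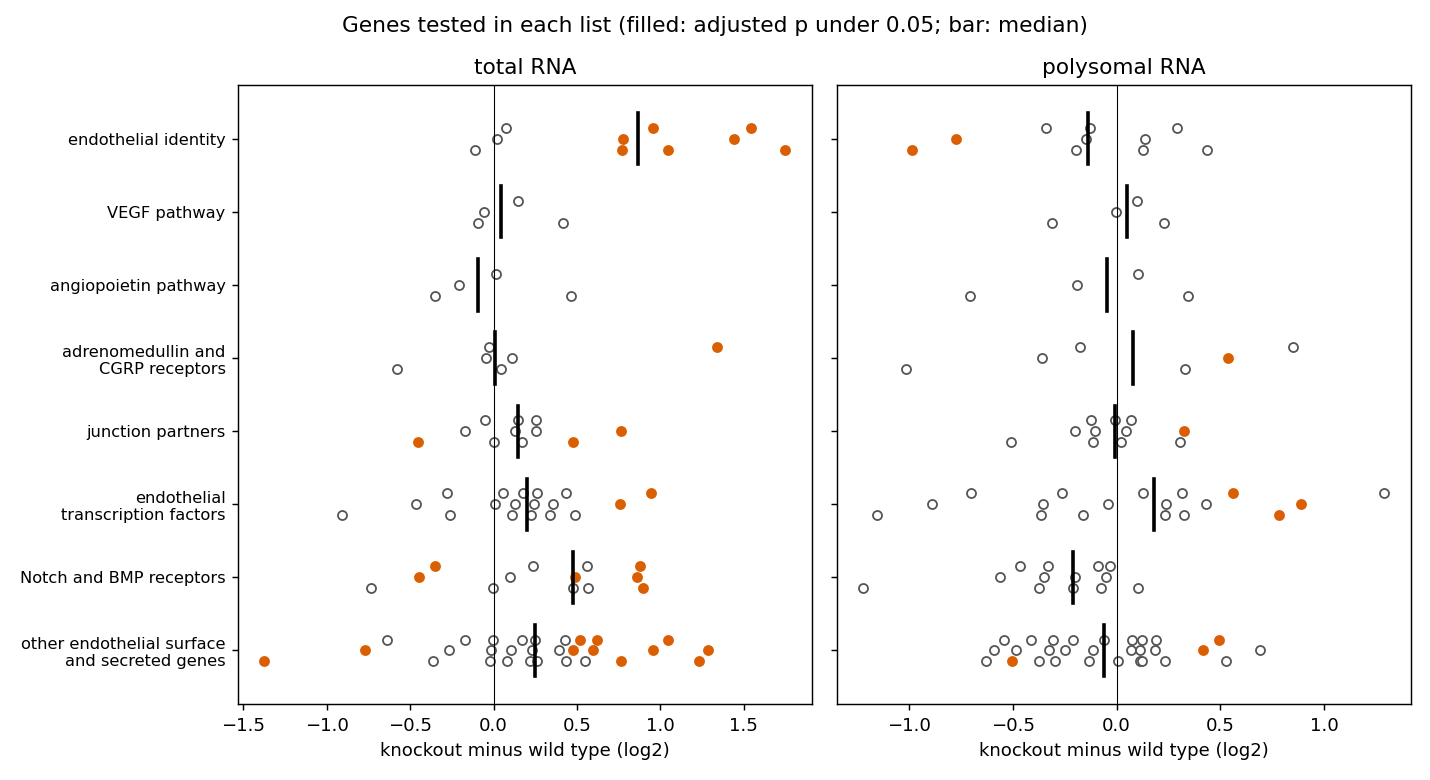
Knockout minus wild type in log2 units for every tested gene of the 10 endothelial identity genes and of 7 related lists, in total RNA (left) and polysomal RNA (right). Filled points have an adjusted p under 0.05, and the bar is the list's median, which is 0.87 in total RNA and -0.14 in polysomal RNA for the endothelial identity genes.

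Counts for marker lists of other lung cells are set beside the members, and their part in the members' differences was not tested. In total RNA, where 17.2% of all genes were called higher, 4 of 8 smooth muscle and pericyte markers rose (median 0.58), as did 2 of 7 fibroblast markers (median 0.40), 3 of 7 alveolar type 2 markers (median 0.39), 2 of 5 alveolar type 1 markers (median 0.24) and 2 of 6 heart muscle markers (median 0.77). None was lower in any of these lists by limma, also at an unadjusted p under 0.05. Of 6 macrophage markers 1 rose and 4 fell, of 4 airway markers none passed by limma (1 lower at an unadjusted p under 0.05), and of 2 red cell markers 1 rose. In polysomal RNA, where Sox17 and Rasip1 fell and 6.77% of all genes were called lower, 2 of 4 airway markers, 3 of 6 macrophage markers and 2 of 8 smooth muscle and pericyte markers also fell. Foxj1, the transcription factor of ciliated cells, fell by 1.27 (SE 0.18) and Tekt1, a protein of cilia, by 1.62 (SE 0.33). With 1 array omitted in turn the Foxj1 call held throughout and the Tekt1 call was lost for 2 arrays. Of 7 fibroblast markers 1 rose and 1 fell there, and 1 of 2 red cell and 1 of 6 leukocyte markers rose. No alveolar type 1 or type 2, heart muscle or platelet marker passed on polysomes by limma, and at an unadjusted p under 0.05 there were 2 alveolar type 1 markers and 1 heart muscle marker higher. The summed level of the 10 members was 13.93 to 14.05 log2 on wild-type total and 14.57 to 14.70 on knockout total arrays, and 16.12 to 16.16 and 16.09 to 16.21 on the polysomal arrays. Smooth muscle markers summed to 11.95 to 12.19 and 12.64 to 12.70 in total RNA, and fibroblast markers to 14.00 to 14.27 and 14.90 to 14.95. Alveolar type 2 genes, the mark of lung tissue, summed to 16.63 to 17.26 on wild-type total, 17.48 to 17.52 on knockout total and 17.93 to 18.04 on polysomal arrays. Macrophage markers summed to 14.55 to 14.76 on wild-type and 13.97 to 14.24 on knockout total arrays, and to 15.54 to 15.58 and 14.89 to 15.03 on the polysomal arrays. Airway markers summed to 16.96 to 17.02 on wild-type and 16.85 to 16.97 on knockout polysomal arrays.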

How the data were processed

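The deposited values are log2 expression for each probe set, made by the authors with GCRMA (background correction, normalization and summary of probes), per the submitters' processing notes. That the scale is log2 was inferred from the range of the values, 0.73 to 16.7. RNA input was 100 ng, with 2 rounds of amplification, per the labels' protocols. Of 26180 probe sets, named by RefSeq accession, 15228 matched 1 gene in the RefSeq table of GRCm38.p6. limma (version 3.58.1, R 4.3.3) fitted 1 mean per group over the 11 arrays on 13802 probe sets, with 7 residual degrees of freedom and two-sided tests adjusted by Benjamini-Hochberg at 0.05. For arrays, their number limits the precision. The fit was also run on simulated data with independent noise and fewer changed genes than were called here. That is a simpler setting than these arrays, and no result rests on it. Members, lists and tests were chosen with earlier results of these data known. Named genes were all members, and of each list up to 4 that passed in a genotype contrast by smallest adjusted p, or else the smallest p; further genes in the text (Vegfa, Angpt1, Angpt2, Ptprb) are named as list members. Of the lists, 1 is not reported here. The 8 genes most like the members' mean profile were named by Pearson's r. Alternatives were other filters, quantile normalization, equal array medians, trended moderation, blocks by set letter, repeats left out, a threshold of 0.01, the groups compared alone and each array left out. Figures used matplotlib 3.10.9 in Python 3.11.15.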

Additional observations from a re-analysis of the deposited data

Results flagged for a closer look

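The genotype difference was not the same in total and polysomal RNA for 7 of the 10 genes, by limma's test of the interaction over the 11 arrays. All 7 were called lower by it, as were 14.2% of all 8085 genes, and 8.06% of all genes were called higher. The polysomal difference minus the total RNA difference was -2.52 for Rasip1, -1.59 for Tie1, -1.17 for Ramp2, -1.11 for Pecam1, -0.97 for Esam, -0.88 for Sox17 and -0.83 for Cldn5. The Pecam1 call (limma adjusted p = 0.041) was lost in 12 of 20 alternatives, among them both replicate blocks by set letter and no filter on low values, each of which left 6 genes. Sox17 is the 1 of these whose total RNA difference was not called.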

How the results depend on the processing

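Each of 50 values, the differences of the 10 genes in 5 contrasts, was recomputed under up to 21 alternatives, 1040 values in all. Of these 998 kept their direction and side of the threshold, 26 lost the call, 5 gained it, and none that was called reversed. A further 11 changed sign without being called before or after: in total RNA Tek (down to -0.08) and Cdh5 (down to -0.02), each under quantile normalization, equal array medians, the block over all arrays and without knockout total replicate 2, Sox17 in knockout polysomal minus total RNA (down to -0.06) under quantile normalization and equal array medians, and Tie1 in polysomal RNA (0.02) without wild-type polysomal replicate 1. All 7 total RNA calls and the Sox17 polysomal call held in every alternative. The losses were the Rasip1 polysomal call (14 alternatives) and the Pecam1 interaction call (12 alternatives); the cause was not tested. Members lower in polysomal RNA numbered 1 rather than 2 with no filter on low values, with either replicate block by set letter, at a threshold of 0.01 and with the groups compared alone. Leaving out 1 array gave 1 to 2 lower and 0 to 1 higher in polysomal RNA, and 6 to 8 lower in the interaction. The named genes of the other lists were recomputed in the same way, and calls lost with 1 array left out stand beside them. Where 1 wild-type polysomal array was left, it was assumed to vary like the other groups. On the percentile scale, 1 member rather than 0 was lower on every knockout total array, and 3 rather than 4 on every knockout polysomal array.

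Pairing by set letter was looked at through deviations from the group means. Over 15 pairs of arrays with the same letter r ran from -0.17 to 0.32, and 2 pairs exceeded 0.1. Over 30 pairs with different letters r ran from -0.24 to 0.33, and 6 pairs exceeded 0.1. Deviations in groups of 2 or 3 arrays must sum to 0, so these values cannot exclude pairing. The main fit took no pairing, and blocks by letter were fitted as alternatives. With the replicate block over all arrays the Pecam1 interaction was -0.93 and its call was lost (limma adjusted p = 0.097), as it was with the block within RNA kind (-0.96, adjusted p = 0.10). The Rasip1 polysomal call was lost under both blocks as well (-0.75 and -0.80, limma adjusted p = 0.087 and 0.12). Of 53 called differences of the named list genes, 5 lost the call with the block over all arrays and 16 with the block within RNA kind, among them Adm and Sox18 in total RNA and Calcrl, Egfl7, Lmo2, Tal1 and Tjp1 in polysomal RNA. Each gene had 1 distinct probe set, so averaging probe sets could not change a value. Quantile normalization moved the median of all genes for polysomal minus total RNA in wild type from 0.22 to 0.06 and that of the members from 2.53 to 2.11. With equal array medians the share of called genes that were higher in total RNA was 55.2%, against 74.3%, and the members' median was 0.77. Probe sets under the filter had medians of 2.43 to 2.49 on wild-type total and 2.34 to 2.39 on knockout total arrays. The low wild-type values of Rasip1 and Pecam1 limit how well the size of their rises is known.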
